A study of Mus musculus with 2 samples.

Results

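The genes described here encode 10 subunits of the nicotinic acetylcholine receptor, taken by symbol from the 55536 annotated genes measured in the adrenal gland of newborn mice. They are 5 neuronal subunit genes, Chrna3, Chrnb4, Chrna5, Chrnb2 and Chrna7, and 5 muscle subunit genes, Chrna1, Chrnb1, Chrnd, Chrng and Chrne. All 10 were found, and none had a count of 0 in either library. Total RNA of 2 female B6CASTF1/J mice aged 4 days was sequenced from 300 ng per library, with ribosomal RNA reduced and a synthetic ERCC spike-in added. The strain is a first-generation cross of C57BL/6J with the wild-derived CAST/EiJ, and the labels name no treatment. Both libraries form 1 group of 2 biological replicates, so no comparison between conditions exists. The library texts name the same animal number for both replicates, the tissue texts name different numbers, and 1 donor record is shared, so whether 2 animals were used rests on the replicate numbers and tissue records.

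Nicotinic receptors are pentameric channels that open when acetylcholine binds and let cations into the cell. In the adrenal medulla, preganglionic sympathetic fibres release acetylcholine onto chromaffin cells, and the ganglionic type of receptor, built around the alpha3 and beta4 subunits, starts the depolarisation that releases catecholamines. In skeletal muscle, the receptor at the nerve ending combines alpha1, beta1 and delta subunits with the gamma subunit in fetal fibres or with the epsilon subunit in mature ones.

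Depth was similar in both libraries, with totals of 31838341 expected counts in the first and 32931868 in the second. The unit of level is TPM, which divides each gene's counts by its effective length and scales each library to the same total, and spreads are SD over the 2 animals. The glands carried their defining genes: the 5 adrenal cortex markers summed to 5407 and 5992 TPM in replicates 1 and 2, and the 8 chromaffin cell markers to 1866 and 2177 TPM. Marker genes of other tissues differed widely between the libraries, and the source of their RNA was not tested. The 5 pancreas markers summed to 3611 and 0.490 TPM, the 5 kidney markers to 86.4 and 8.83 TPM, and the 10 skeletal muscle markers to 367 and 2300 TPM. In bulk tissue, fewer cells of a type and less RNA per cell cannot be told apart.

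The stretches shown next lie just before the RefSeq start sites of 6 members and let the muscle and neuronal genes be compared in their own letters. They come from RefSeq promoters of build GRCm38.p6, the assembly also called mm10, where 9 of the 10 members had an entry, and they were kept clear of annotated exons. Chrnd had none. The Chrng stretch lies in the first intron of a longer GENCODE transcript model that had no counts in either library. Capitals mark CAGCTG, an E-box that reads the same on both strands and that basic helix-loop-helix factors such as those of muscle can bind, and GGGCGG, a GC box, on either strand (CCGCCC on the other). Each stretch is 110 bases long and runs 5′ to 3′ on the strand of its gene.

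Chrna1, chr2:73580345-73580454, minus strand: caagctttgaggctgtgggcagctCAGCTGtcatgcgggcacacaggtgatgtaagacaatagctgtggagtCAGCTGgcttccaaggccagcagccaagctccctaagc

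Chrng, chr1:87205641-87205750, plus strand: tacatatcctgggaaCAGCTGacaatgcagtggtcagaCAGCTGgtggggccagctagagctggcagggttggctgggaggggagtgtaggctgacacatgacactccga

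Chrne, chr11:70619255-70619364, minus strand: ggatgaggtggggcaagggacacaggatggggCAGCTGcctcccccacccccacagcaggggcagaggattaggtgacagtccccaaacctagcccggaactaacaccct

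Chrnb1, chr11:69795944-69796053, minus strand: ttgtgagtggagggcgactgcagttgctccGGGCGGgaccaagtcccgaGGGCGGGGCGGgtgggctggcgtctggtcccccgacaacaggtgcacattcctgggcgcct

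Chrna3, chr9:55026569-55026678, minus strand: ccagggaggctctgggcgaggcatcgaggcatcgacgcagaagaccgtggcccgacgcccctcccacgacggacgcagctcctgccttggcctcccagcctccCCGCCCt

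Chrna7, chr7:63212587-63212696, minus strand: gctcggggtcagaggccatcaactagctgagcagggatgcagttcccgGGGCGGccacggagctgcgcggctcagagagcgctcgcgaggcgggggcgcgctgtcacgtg

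In the 250 bases before the start, CAGCTG was found in the muscle genes Chrna1 (92 and 44 bases before the start), Chrng (155 and 132) and Chrne (138), and in the neuronal gene Chrnb4 (14). Of 32851 promoters in the table, 13% held it. GGGCGG was found in Chrna3 (13 bases before the start), Chrna7 (122), 1 of the 2 listed promoters of Chrna5 and the muscle gene Chrnb1, against 32.7% of all promoters. In Chrnb1, copies 67 and 62 bases before the start overlap by their last and first letter. Chrnb2 held neither. These are matches of letters and show no binding.

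The neuronal genes made up most of the receptor signal and were nearly level between the animals. Their sums in replicates 1 and 2 were 26.4 and 26.7 TPM, which is 26.5 ± 0.212 TPM (SD, n = 2). The muscle genes reached sums of 1.86 and 5.88 TPM in replicates 1 and 2, which is 3.87 ± 2.84 TPM (SD, n = 2). The neuronal sum was therefore 14.2 times the muscle sum in replicate 1 and 4.54 times in replicate 2, with a log2 ratio of 3.00 ± 1.16 (SD, n = 2). Both animals lay on the same side. Between them the muscle sum differed 3.16-fold and the neuronal sum 1.01-fold. An exact permutation of signs, two-sided, cannot give a p below 0.5 with 2 animals, so no p is given for this ratio.

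**Figure D1:**
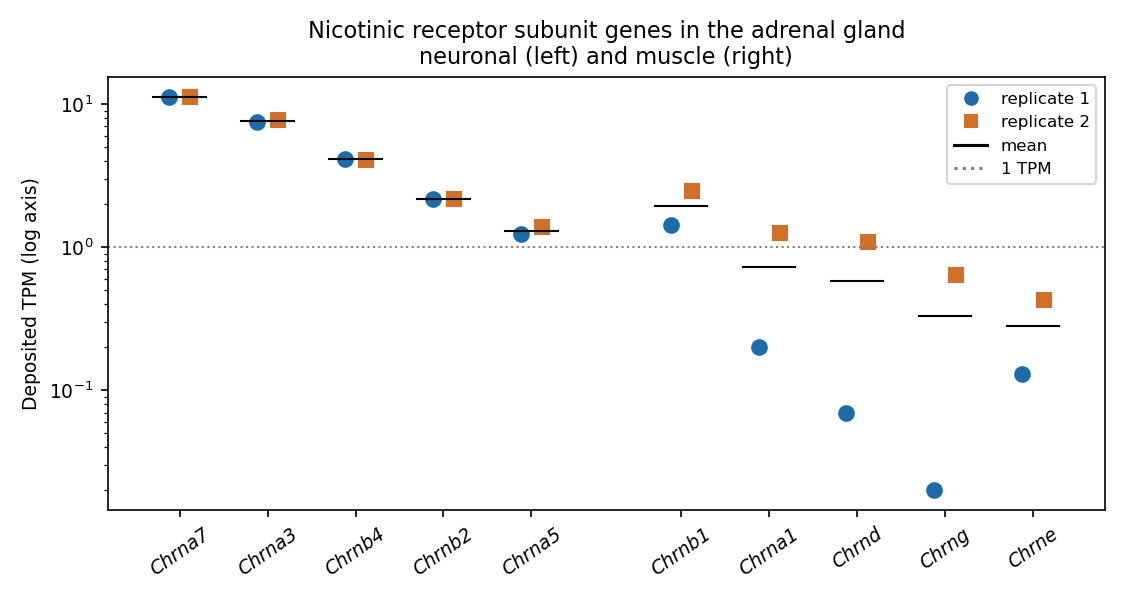
Deposited TPM on a log axis for the 10 subunit genes, with a circle for replicate 1, a square for replicate 2 and a bar at the mean. The points of each neuronal gene lie together between 1.24 and 11.3 TPM, whereas those of each muscle gene are apart and, except for Chrnb1, start at or below 0.2 TPM in replicate 1.

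Chrna3 encodes alpha3, the acetylcholine-binding subunit of the ganglionic receptor. It measured 7.51 TPM in replicate 1 and 7.80 TPM in replicate 2, on 812 and 869 expected counts. Chrnb4, for the beta4 subunit that pairs with alpha3, measured 4.12 and 4.11 TPM on 460 and 474 counts. Neither gene differed between the animals by more than counting error. Chrna3 exceeded Chrnb4 in both animals, by a log2 ratio of 0.89 ± 0.04 (SD, n = 2), or 1.86-fold.

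Chrna5 encodes alpha5, an accessory subunit that joins receptors of alpha3 with beta4 or beta2. It was the lowest neuronal gene, at 1.24 and 1.38 TPM in replicates 1 and 2 on 80 and 88 counts. Chrna3 stood above it by a log2 ratio of 2.54 ± 0.07 (SD, n = 2), or 5.81-fold. These 3 genes lie side by side on chromosome 9 of build mm10. Chrna5 (ENSMUSG00000035594.10) runs on the plus strand, from 54980880 to 55007779, and 2331 bases further Chrna3 (ENSMUSG00000032303.7) runs on the minus strand from 55010111 to 55026562. Chrnb4 (ENSMUSG00000035200.7) follows after another 1591 bases, on the minus strand from 55028154 to 55048779. Neighbours in this cluster thus differed up to 5.81-fold in level, and each had nearly the same level in both animals.

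Chrna7 encodes alpha7, which forms receptors made of that subunit alone, with high permeability to calcium. It was the highest of the 10 genes in both animals, at 11.3 and 11.2 TPM on 699 and 716 counts. It exceeded Chrna3, with a log2 ratio of Chrna3 to Chrna7 of -0.56 ± 0.05 (SD, n = 2). Among 22015 nuclear protein-coding genes, Chrna7 ranked 6960 by mean TPM and Chrna3 ranked 8639. That ranking includes genes with little or no signal, and 13054 of the 22015 had 1 TPM or more in both animals. Chrna7 (ENSMUSG00000030525.8) is a minus-strand gene of chromosome 7 from 63098692 to 63212569.

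Chrnb2 encodes beta2, the partner of alpha4 in the main brain receptor and an alternative to beta4 in ganglia. It measured 2.18 and 2.17 TPM on 419 and 429 counts. Chrnb4 exceeded it by a log2 ratio of 0.92 in both animals, or 1.89-fold. TPM given to 2 decimals is too coarse to measure the spread of this ratio, so no SD is given. Chrnb2 (ENSMUSG00000027950.7) is a minus-strand gene of chromosome 3 from 89746195 to 89764632. It shares 1365 exonic bases with Adar, a gene on the other strand at 14.5 and 11.0 TPM, and no source used here says whether reads were counted by strand, so its level is uncertain to that extent.

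All 5 neuronal genes had 1 TPM or more in both animals, as did 59.3% of nuclear protein-coding genes. The log2 ratio of the second animal to the first, computed on TMM-scaled expected counts, ran from 0.03 for Chrnb2 to 0.13 for Chrna5. For comparison, the absolute log2 ratio had a median of 0.134 over the 17512 genes that averaged 20 counts or more. The 95% counting interval, which treats the counts of a gene as a binomial split between the libraries, included 0 for all 5. It lay above 0 for the 3 muscle genes with that mean count, Chrna1, Chrnb1 and Chrnd. That interval excluded 0 for 38.3% of the 17512 genes. The small ratios of Chrna7, Chrnb2 and Chrnb4 turned slightly negative by ERCC scaling and by the deposited TPM, so no direction is given for the group.

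Markers of cells known to carry these receptors were read from the same libraries. The 8 chromaffin cell markers had a median log2 ratio of 0.24, with a range from -0.06 to 0.37, and 7 of 8 were higher in replicate 2. The median over all genes with a mean of 20 counts or more was 0.01. The 7 markers of neurons and neuroblasts summed to 135 and 136 TPM, and their median log2 ratio was -0.05. The 5 macrophage markers, cells in which Chrna7 is also known, summed to 70.5 and 100 TPM. None of these markers was at 0 in either animal. The part of each cell type in the receptor levels was not tested.

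The muscle genes differed between the animals in 1 direction. Chrna1, for the acetylcholine-binding alpha1 subunit, measured 0.20 TPM in replicate 1 and 1.25 TPM in replicate 2, on 26 and 170 counts. Its log2 ratio was 2.68 (95% counting interval 2.10 to 3.36), a 6.42-fold higher level in replicate 2. The gene (ENSMUSG00000027107.3) is a minus-strand gene of chromosome 2 from 73563215 to 73580338.

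Chrnd, for the delta subunit, measured 0.07 and 1.09 TPM on 6 and 91 counts. Its log2 ratio of 3.81 (95% counting interval 2.74 to 5.40) was the largest of the 10 genes. Chrnd to Chrna1 gave a log2 ratio of -1.39 in replicate 1 and -0.20 in replicate 2. Chrnd (ENSMUSG00000026251.13) and Chrng (ENSMUSG00000026253.14) are neighbours read from the plus strand of chromosome 1. The former spans 87190607 to 87200070 and the latter, 4586 bases on, 87204657 to 87212694.

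Chrnb1, for the beta1 subunit, stood apart from the other muscle genes. It measured 1.44 and 2.47 TPM on 70 and 145 counts, and was the 1 muscle gene above 1 TPM in both animals. Its log2 ratio was 1.04 (95% counting interval 0.63 to 1.48), smaller than those of Chrna1 and Chrnd, whose intervals did not overlap it. By ERCC scaling and by deposited TPM it was below 2-fold, at 0.96 and 0.78 on the log2 scale. In the second quantification described further on, Chrna1 stood at 1.92 and Chrnd at 3.22 on that scale, smaller than in the gene tables, and Chrnb1 at 1.20, larger than there, so the gap between Chrnb1 and the other two was narrower. Chrnb1 made up 77.4% of the muscle sum in replicate 1 and 42.0% in replicate 2, so without it the muscle sum was 0.42 and 3.41 TPM, an 8.12-fold difference. Chrnb1 (ENSMUSG00000041189.9) is a minus-strand gene of chromosome 11 from 69784036 to 69795943.

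Chrng and Chrne encode gamma and epsilon, the latter replacing the former as muscle matures. Chrne (ENSMUSG00000014609.16) is a minus-strand gene of chromosome 11 from 70614883 to 70619216. Chrng measured 0.02 and 0.64 TPM on 2 and 28 counts, and Chrne 0.13 and 0.43 TPM on 3 and 14 counts. Their log2 ratios of replicate 2 over replicate 1 were 3.51 (95% counting interval 1.82 to 6.92) and 2.05 (0.38 to 4.66). Both intervals lay above 0, but they span a wide range because replicate 1 held so few counts. For Chrng the log2 ratio was 2.64 in the second quantification and larger than 3.51 from deposited TPM.

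Which of the pair was higher could not be told at this depth. The log2 ratio of Chrng to Chrne was -2.22 in replicate 1 and 0.56 in replicate 2, with opposite signs. The level of Chrng in replicate 2 rested largely on Chrng-203, a transcript of 729 bases given 8.3 counts and 0.41 TPM. The full-length coding transcripts Chrng-201 and Chrne-202 were level there, at 0.23 and 0.24 TPM. In replicate 1, Chrne-203, a retained intron given 1.6 counts, held 0.10 of the 0.13 TPM of Chrne. Chrng-201 and Chrne-202 measured 0.02 and 0.03 TPM in that replicate.

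**Figure D2:**
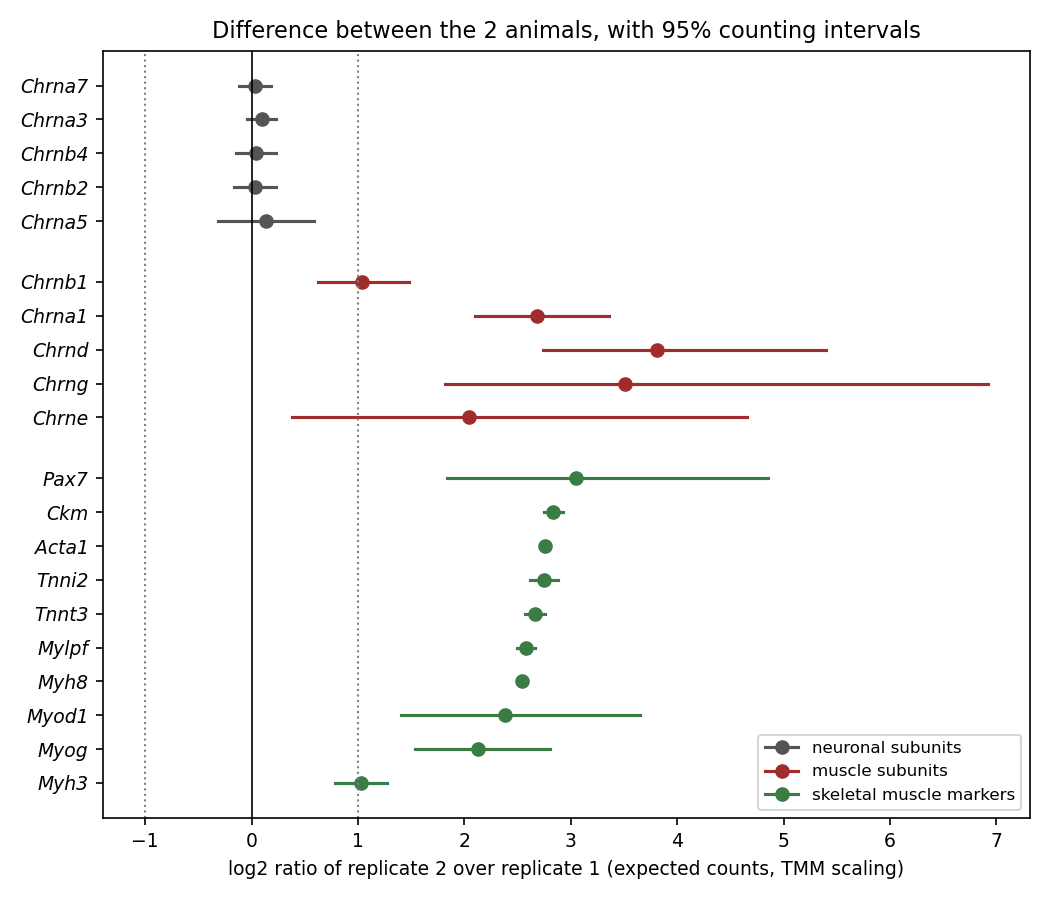
The log2 ratio of replicate 2 over replicate 1 with 95% counting intervals for the neuronal genes, the muscle genes and the 10 skeletal muscle markers, with dotted lines at 2-fold. Neuronal genes sit near 0, with intervals that include it, and the muscle genes and skeletal muscle markers lie to the right, from 1.02 to 3.81.

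With a mean of 20 counts required, which 8 members reached, the genes past 2-fold between the animals were Chrna1, Chrnb1 and Chrnd, all higher in replicate 2. Over all 17512 genes, 5.67% were past 2-fold in either direction and 2.37% were past it toward replicate 2. Chrnd reached the mean count only through replicate 2, where it is high, so it had to differ, and Chrng and Chrne did not reach it. The difference rests on 1 library against 1 library and has no replicate check.

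Genes of skeletal muscle differed the same way. All 10 markers were higher in replicate 2 by at least 2-fold, with log2 ratios from 1.02 to 3.04 and a median of 2.62, and the sum differed 6.27-fold. Acta1, the actin of skeletal muscle, measured 128 and 840 TPM in replicates 1 and 2. Myh8, the myosin of muscle around birth, measured 33.9 and 191 TPM. Myod1, a muscle determination factor, measured 0.17 and 0.87 TPM, and Myog, a factor of muscle differentiation, 0.63 and 2.70 TPM. Myod1 and Pax7 reached the mean count only through replicate 2. No marker was at 0 in either animal, and their part in the levels of the muscle subunits was not tested.

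The make-up of each sum gives the same TPM as shares, so it follows from the levels above and is no separate difference. Chrna7 was 42.9% and 42.1% of the neuronal sum in replicates 1 and 2, Chrna3 28.5% and 29.2%, Chrnb4 15.6% and 15.4%, Chrnb2 8.26% and 8.13%, and Chrna5 4.70% and 5.17%. No neuronal share moved by more than 1 percentage point between the animals. Among the muscle genes, Chrna1 was 10.8% and 21.3%, Chrnd 3.76% and 18.5%, Chrng 1.08% and 10.9%, and Chrne 6.99% and 7.31%. The shares of Chrng rest on 2 and 28 counts and those of Chrne on 3 and 14.

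**Figure D3:**
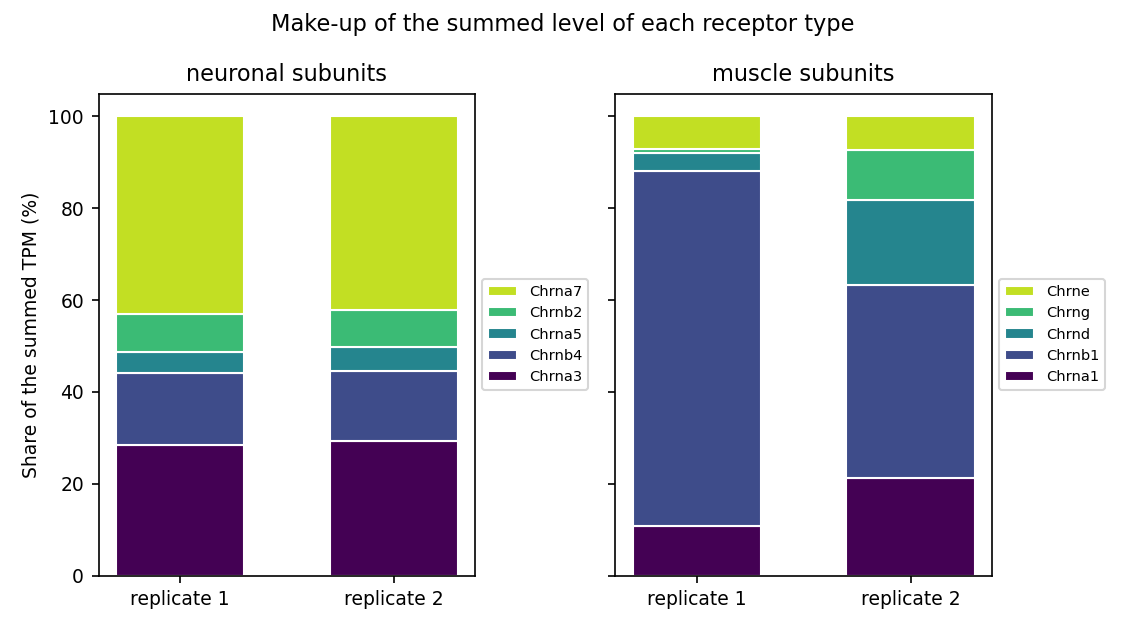
Stacked shares, in percent of the summed TPM, of each neuronal gene (left) and each muscle gene (right) in replicates 1 and 2. The neuronal bars are alike, and in the muscle bars Chrnb1 takes 77.4% in replicate 1 and 42.0% in replicate 2.

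Ordered by mean TPM, the 10 genes were Chrna7, Chrna3, Chrnb4, Chrnb2, Chrnb1, Chrna5, Chrna1, Chrnd, Chrng and Chrne. The ranges of the 2 animals did not overlap between Chrna7 and Chrna3, between Chrna3 and Chrnb4, between Chrnb4 and Chrnb2, or between Chrnb1 and Chrna5. Chrnb2 and Chrnb1 were not separated, nor were Chrna5 and Chrna1, and the 4 genes from Chrna1 down overlapped at each step. Within each animal, however, Chrna5 stood above Chrna1, Chrna1 above Chrnd and Chrnd above Chrng by deposited TPM. In replicate 1, Chrna1, Chrnd and Chrng held 26, 6 and 2 counts. By posterior mean TPM there, Chrng stood above both others, at 0.25 TPM against 0.20 TPM for Chrna1 and 0.16 TPM for Chrnd. In replicate 2 the deposited intervals of TPM overlapped for Chrna5 (1.16 to 1.85), Chrna1 (1.04 to 1.41) and Chrnd (0.88 to 1.62). The order of Chrnb2 and Chrnb1, and that of Chrng and Chrne, differed between the animals. Chrnb1 ranked 12394 among the protein-coding genes and Chrne, the lowest, 15136. The gene-level TPM of Chrnb1 exceeded that of Chrna5 in both animals, but its coding transcript Chrnb1-201 alone did not in replicate 1, where it stood at 1.0 TPM against 1.24 TPM. In the second quantification the same transcript stood at 1.57 TPM there, against 2.63 TPM for Chrna5. The 3 muscle genes at 1 TPM or more in replicate 2 were Chrna1, Chrnb1 and Chrnd.

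Of the 5 neuronal genes, 3 were carried almost wholly by 1 transcript. Chrna7-201, a coding transcript of 2078 bases, held 96.6% of the TPM of Chrna7 in both animals, Chrnb2-201 98.2% and 97.2% of Chrnb2, and Chrnb4 had a single annotated transcript. Chrna3 was split between 2 coding transcripts, with Chrna3-201 at 4.63 and 4.75 TPM and the shorter one at 2.88 and 3.04 TPM. For Chrna5, Chrna5-204 held 63.7% and 50.4%. Transcripts without a coding label, mainly retained introns, held 30.6% and 13.4% of the TPM of Chrnb1, on 6.52 and 4.74 counts, because short transcripts turn few counts into much TPM. For Chrne, retained introns held 76.9% and 42.9%, on 1.6 and 2.46 counts. Chrna1 had a single annotated transcript, which is coding.

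A second deposited quantification, made from the read files, gave higher TPM for all 10 genes and the same order of means. The neuronal genes summed to 44.3 TPM and the muscle genes to 6.90 TPM there, as means over the animals. Chrna7 averaged 19.2 TPM and Chrnb4 6.98 TPM, and Chrna1 stood at 0.55 and 1.99 TPM in replicates 1 and 2. The ratio between the types was similar, with a log2 ratio of 2.80.

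**Figure D4:**
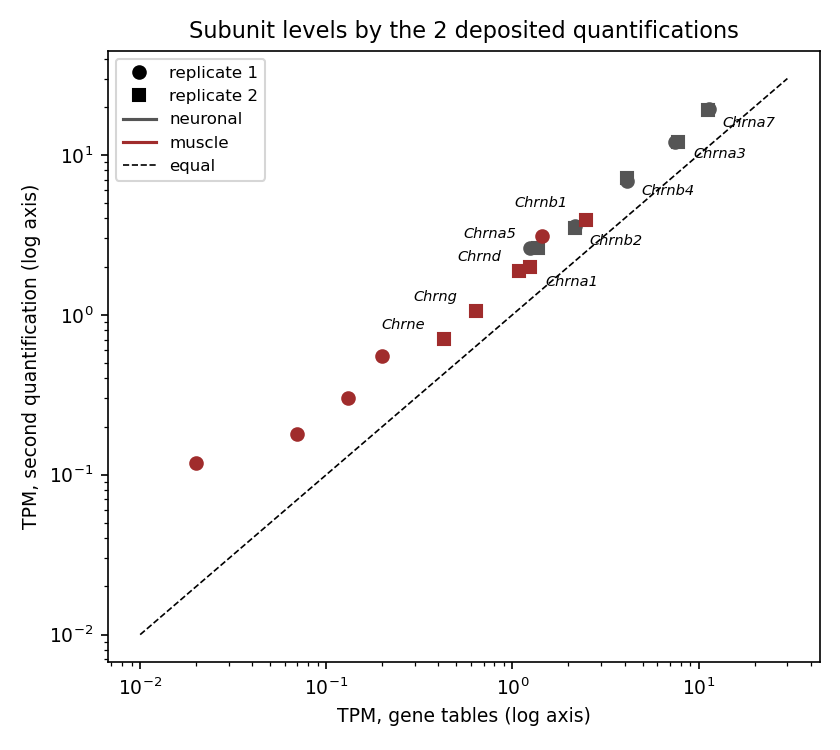
TPM of each subunit gene in the gene tables (x, log axis) and in the second quantification (y, log axis), circles for replicate 1 and squares for replicate 2, with a dashed line of equality. All points lie above the line, and the order of the means is the same in both.

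The other 6 nicotinic subunit genes were mostly near the floor. Chrna4, for the alpha4 subunit that pairs with beta2, was the exception, at 4.85 and 3.61 TPM in replicates 1 and 2 on 601 and 513 counts. This range contains the level of Chrnb4, and the log2 ratio was -0.23 (95% counting interval -0.40 to -0.06). Chrna9 measured 0.24 and 0.63 TPM on 9 and 31 counts, with a log2 ratio of 1.73 (95% counting interval 0.67 to 3.04). Its mean count was exactly 20, reached only through replicate 2, where it is high. Chrna2 had 4 and 11 counts, and Chrna6, Chrna10 and Chrnb3 had at most 3 counts in either library, where a count of 0 would allow a share of up to 9.42e-06% of replicate 1 and 9.11e-06% of replicate 2.

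Genes for assembling and tuning these receptors were expressed in both animals. Of 7 in the list, 6 had 1 TPM or more in both, as did 59.3% of nuclear protein-coding genes. None with a mean of 20 counts was past 2-fold, against 5.67% of all genes at that count. The seventh, Lypd6b, of the same family as Lynx1, had a mean count of 18. It measured 0.58 and 0.11 TPM on 28 and 8 counts, with a log2 ratio of -1.75 (95% counting interval -3.16 to -0.64). Ly6e, also of that family, was highest at 115 and 111 TPM. Tmem35a, the chaperone NACHO that alpha7 needs to assemble, measured 41.9 and 43.8 TPM, and Lynx1, which binds nicotinic receptors and dampens them, 33.9 and 37.6 TPM. The sum over the list was 215 TPM in both animals, with Ly6e as its largest part. Single genes were less level. The 95% counting interval lay above 0 for Lynx1 (log2 ratio 0.27, 0.21 to 0.33), Lypd6 (0.19) and Tmem35a (0.11). It included 0 for Ric3, Ly6h and Ly6e.

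Genes of the neuromuscular junction lay on both sides of no difference, and 4 of 6 were higher in replicate 2. Of 6, Musk, the receptor kinase through which agrin clusters muscle receptors, and Colq, the collagen tail of the junction's acetylcholinesterase, were past 2-fold toward replicate 2. Over all genes with a mean of 20 counts or more, 2.37% were past it toward replicate 2. Musk measured 0.42 and 0.94 TPM and Colq 0.27 and 0.84 TPM. Colq, with 16 and 73 counts, reached the mean count only through replicate 2. The 3 highest were Agrn at 49.6 and 35.1 TPM, Dok7 at 4.67 and 6.05 TPM, and Lrp4 at 5.07 and 3.96 TPM, and none of them was past 2-fold. The median log2 ratio of the 6 was 0.44, against 0.01 over all genes at that count.

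Genes that break down acetylcholine were above 1 TPM, and those that make, load or recover it were near the floor. Ache, the acetylcholinesterase gene, measured 7.22 and 6.84 TPM, and Bche, for butyrylcholinesterase, 1.69 and 2.25 TPM. Slc18a3, the vesicular acetylcholine transporter gene, measured 0.13 and 0.26 TPM on 9 and 19 counts. The choline transporter gene Slc5a7 had 11 and 10 counts, and Chat, for the enzyme that makes acetylcholine, had 1 count in each library.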

How the data were processed

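Adrenal gland RNA of 2 libraries was analysed as 1 group of 2 replicates. Per the file headers, the authors' deposited gene tables hold an expected count, TPM and posterior mean TPM per gene, made from transcriptome alignments with build mm10 and annotation M21. A separate deposited table per library, made directly from reads, holds an estimated count and TPM for each transcript, summed here to genes. No source used here names the aligner, the quantifier, their versions or the strand setting. Rows without a gene annotation held 4.61e-05% and 6.07e-06% of the counts, and spike-in or control rows 0.900% and 0.923%.

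Expected counts of annotated genes were rounded and scaled by TMM in edgeR 4.0.16 (factors 1.02 and 0.985), with a prior of 0.5 counts. DESeq2 1.42.0 size factors were an alternative. Against TMM, spike-in scaling shifts every log2 ratio by -0.08. Intervals are 95% exact Clopper-Pearson intervals of the split of counts between the libraries. Reads carry no molecular identifiers, so intervals and floors of 3 counts cover counting error only. Genes were named as past 2-fold at a mean count of at least 20, a rule of size without a p-value. Pairs used a pseudocount of 0.01 TPM. The log2 ratio, its interval and the 2-fold rule were tested on simulated counts that hold counting error and set changes only. The simulation did not cover the other steps or variation between animals. The software was R 4.3.3, scipy 1.17.1 and pandas 2.3.3 under Python 3.11.15. All 10 members were named, and the other 6 subunits were given with values or counts. Of the assembly, neuromuscular junction and acetylcholine lists, the 3 highest genes and those past 2-fold were named. Cell type markers were reported by list, apart from some of skeletal muscle. Chat and Slc5a7, and the muscle markers given with values, were chosen after their values were seen. Lypd6b, Lypd6, Ric3 and Ly6h were also named outside the rule of the 3 highest and those past 2-fold. Likeness to other genes was not computed, since 2 libraries give 1 ratio per gene. The members and lists were chosen with earlier results of these data known.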

Additional observations from a re-analysis of the deposited data

How the results depend on the processing

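The log2 ratio of the neuronal to the muscle sum stayed positive under every alternative tried, between 2.18 and 3.83, which are the values without replicate 1 and without replicate 2. The neuronal sum ran from 26.4 to 26.7 TPM and the muscle sum from 1.86 to 5.88 TPM when 1 replicate was left out, and 6 to 8 members were at 1 TPM. TPM rescaled to protein-coding nuclear genes gave sums of 72.8 and 10.7 TPM, the second quantification 44.3 and 6.90 TPM, and posterior mean TPM a neuronal sum of 26.2 TPM. The count of members past 2-fold was 1 at a mean count of at least 100 and 5 with no filter. By ERCC scaling or deposited TPM it was 2, without Chrnb1. In the second quantification the log2 ratios of Chrna3 to Chrnb4, Chrna5 and Chrna7 were 0.78, 2.19 and -0.67, and that of Chrnb4 to Chrnb2 was 0.98. By posterior mean TPM, Chrna3 to Chrna5 was 2.40, Chrnb4 to Chrnb2 0.90 and Chrng to Chrne 0.14, which reversed its mean of -0.83. With a pseudocount of 0.1 TPM, Chrna3 to Chrna5 was 2.46 and Chrnb4 to Chrnb2 0.89. Chrng to Chrne ran from -2.22 to 0.56 when 1 replicate was left out. The cause of these shifts was not tested. No paired analysis was possible because the samples form 1 group.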

Other observations

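Set against the summed TPM of the 10 skeletal muscle markers, a ratio chosen after the values were seen, the muscle subunits differed from one another. Chrna1 stood at 0.545 TPM per 1000 TPM of marker sum in replicate 1 and at 0.543 in replicate 2. In the second quantification, added after the values were seen, it stood at 0.645 and 0.380, so it was level in the gene tables only. Chrnb1 stood at 3.93 and 1.07 on the same scale, 3.66-fold higher in replicate 1, and Chrne at 0.354 and 0.187. Replicate 1 held 3 counts of Chrne, and retained introns held 76.9% and 42.9% of its TPM in replicates 1 and 2. Its coding transcript Chrne-202 alone measured 0.03 and 0.24 TPM, so no direction is given for Chrne. Chrnd stood at 0.191 and 0.474, and Chrng at 0.0545 and 0.278, each higher in replicate 2, though replicate 1 held 6 counts of Chrnd and 2 of Chrng. In the second quantification Chrnb1 stood at 3.63 and 0.752 and Chrnd at 0.211 and 0.358, in the same directions, and Chrng at 0.138 and 0.201. Chrne stood at 0.354 and 0.135 there, where retained introns held 83.6% and 39.7% of its TPM. The neuronal gene Chrna7 stood at 30.9 and 4.88. With 1 library on each side, none of these differences has a replicate check.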
